A study of Mus musculus with 2 samples.

Results

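The TGF-beta and activin pathway was examined here as 35 genes, measured in regulatory T (Treg) cells of mice labelled Nr4a-TKO and of wild-type mice. The genes are 6 ligands, 6 proteins of ligand latency and processing, 9 receptors, 5 receptor-regulated and common Smads, and 9 inhibitors and corepressors. Fst, which encodes the activin-binding follistatin, is counted here with latency and processing. The 35 genes were chosen by name: every non-control probe of the 2 scanner files whose gene name is on the list was taken. This gave 58 of 55676 probes and 35 of 34817 gene names. Treg cells are T cells, mostly of the CD4 lineage, that hold other immune cells in check, and the Nr4a family is a group of nuclear receptors. The series title ties Nr4a to the transcription of Treg cells and to the suppression of type 2 and follicular helper T cells. Total RNA of Treg cells from 5-week-old mice, lysed straight after sorting, was hybridised to Agilent arrays in 1 colour, with 1 array per genotype. One array carries the genotype label Nr4a-TKO and the other the label wild-type. How the Nr4a genes were altered, in which cells, the sex of the mice, the number pooled and the sorting markers are not given in the sources used here.

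TGF-beta is made as an inactive precursor that a protease cuts and that stays wrapped in its own propeptide until it is released. The free ligand brings a type II and a type I receptor together, and the type I receptor phosphorylates Smad2 and Smad3, which bind Smad4 and act on genes in the nucleus. Activins use the same Smads through their own receptors, and BMPs use Smad1 and Smad5. In T cells TGF-beta is known for inducing and maintaining Foxp3 and for restraining activation.

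With 1 array per genotype there is no replicate check, so no p-value was computed and each difference below is between 2 arrays. Signals are log2 values relative to the array's own 75th percentile, and differences subtract the wild-type value from that of the array labelled Nr4a-TKO. A gene was read from its brightest probe and called measured where the scanner software placed that probe well above background on both arrays. Probes well above background numbered 35567 (63.9%) on the array labelled Nr4a-TKO and 36732 (66.0%) on the wild-type array, and 0 spots were saturated on either. Of the Nr4a genes, Nr4a3 was 7.04-fold lower (3.26-fold with another background correction, normexp) in the array that carries the Nr4a-TKO label, Nr4a1 differed by 0.06 and Nr4a2 was 2.54-fold higher. Because the altered part of each gene is not stated, these probes may lie outside it and then check nothing, so every direction below rests on the labels. The arrays also differed in sex-linked transcripts: Xist was at least 106-fold higher (31.2-fold with normexp) in the array labelled Nr4a-TKO, and the Y-linked Ddx3y, Eif2s3y and Uty were 3.63-, 1.97- and 1.52-fold lower there.

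Inhba, which encodes the subunit of activin A, stood furthest apart among the 35 genes. It was well above background in the array labelled Nr4a-TKO and not in the wild-type array. Its difference was at least 13.3-fold, higher in the array labelled Nr4a-TKO. The share of all gene names well above background on 1 array alone was not computed, so this bound has no comparison. Among the 28 genes measured on both arrays, Bmpr1a, a type I BMP receptor, was 2.28-fold higher in the array labelled Nr4a-TKO. Furin, the protease that cuts the TGF-beta precursor, was 1.95-fold higher and Acvr1, a type I receptor for BMPs and activins, was 1.64-fold higher. Skil, which encodes the Smad corepressor SnoN, was 1.89-fold lower there, and Tgfbr2, the type II TGF-beta receptor, was 1.68-fold lower. The rest of the 28 differed by less than 1.5-fold. In bulk RNA, fewer cells of a type and less RNA per cell cannot be told apart.

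The probes behind these values are shown because each difference rests on the transcript stretch they bind. Each is 60 bases long and its first 30 are printed, 5′ to 3′, as deposited. In mm9, the build of the file headers, they lie at chr13:16118634-16118693 on the plus strand (Inhba), chr14:35224339-35224398 on the minus strand (Bmpr1a), chr7:87534082-87534141 on the minus strand (Furin), chr2:58298937-58298996 on the minus strand (Acvr1), chr3:31021203-31021262 on the plus strand (Skil) and chr9:115997155-115997214 on the minus strand (Tgfbr2). The headers tie them to transcripts of the named genes, and their exon or UTR position was not analysed here.
Inhba: tcaacatttgctgtaagaaacagttctttg
Bmpr1a: gattcatcttgatatgtaacactaagtgta
Furin: aatggacacgagataatgttagaggtttta
Acvr1: acgctgtggggggaaatgcatcttcttcgg
Skil: tgccaatgcatatagttttatgattaaaat
Tgfbr2: tctagcggggaatttacagaatgctggtcc

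Of the 28 measured genes, 1 (Bmpr1a) was at least 2-fold higher in the array labelled Nr4a-TKO, against 3.15% of the 23415 gene names measured on both arrays. None was lower by 2-fold or more, against 3.06% of all names. At 1.5-fold, 3 were higher (all names 8.37%) and 2 were lower (all names 7.37%). In the array labelled Nr4a-TKO, 18 of the 28 (64.3%) were lower by any amount, against 40.4% of all names and 38.4% of the 14280 names that are RefSeq symbols. The median over the 28 was -0.12, beside 0.08 over all names and 0.09 over RefSeq symbols, and the 28 ranged from -0.92 to 1.19. Centring on the spike-in controls made the number below 0 22, and centring on housekeeping genes made it 21. Both centrings also moved the median of all names, to -0.15 and -0.05. The median of the 28 less that of all names stayed at -0.2, and the share of all names below 0 was not computed for them. The direction of Tgif2, Ltbp1, Ltbp4 and Acvr2b turned in at least 1 of these settings, and that of the other 24 in no setting tried. The scanner software gives each signal an error, which came to a median of 0.20 on a difference. It covers the reading of the spots and not the variation between mice. By that measure 15 of the 28 lay more than 1 error from 0 and 10 more than 2 errors. The share of all names past these cuts was not computed, so the counts have no comparison. The software error also differed from the spread of repeated spots. That spread, as a standard deviation of the difference, was 0.07 for Skil and 0.06 for Tgfb1, against 0.20 from the software for each. For Tgfb3 it was 0.30 against 0.25.

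**Figure D1:**
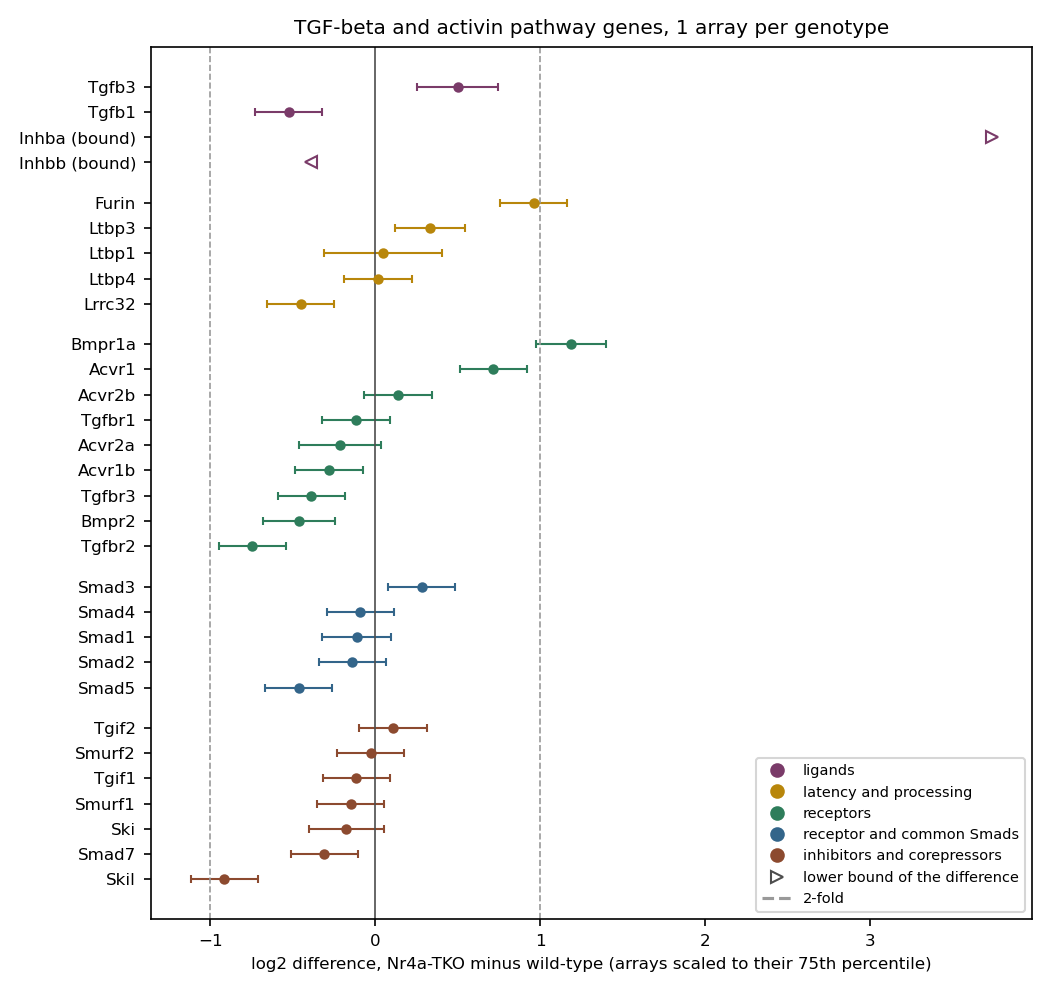
Difference of each gene's brightest probe between the array labelled Nr4a-TKO and wild-type (log2, horizontal axis, above 0 where higher with the Nr4a-TKO label), by role; bars are the error the scanner software gives and not the spread between mice, and open triangles are lower bounds. Bmpr1a (1.19) and Furin (0.96) lie farthest to the right among genes measured on both arrays, Skil (-0.92) and Tgfbr2 (-0.75) farthest to the left.

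Of the 6 ligand genes, 2 were measured on both arrays. Tgfb1, the form of TGF-beta that T cells mainly make, had a log2 signal of 2.68 in the array labelled Nr4a-TKO and 3.20 in the wild-type array, a difference of -0.52 or 1.44-fold lower. Tgfb3, a second form, had -2.73 in the array labelled Nr4a-TKO and -3.22 in the wild-type array, which is 1.41-fold higher. The 2 forms thus differed in opposite directions between these arrays. Inhba had -1.15 in the array labelled Nr4a-TKO, against -5.88 in the wild-type array, where the probe was not well above background. The bound of 13.3-fold became 4.80-fold with normexp background correction, and lay between 4.80 and 13.3 over the 10 settings that allow one. Inhbb, the subunit of activin B, was well above background in the wild-type array alone. Its log2 signal was -4.74 in the array labelled Nr4a-TKO and -4.29 in the wild-type array. This sets it at least 1.31-fold below wild-type, or 1.07-fold with normexp. Neither Tgfb2 nor Inha, the inhibin alpha subunit that turns activin subunits into inhibins, was well above background on either array.

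**Figure D2:**
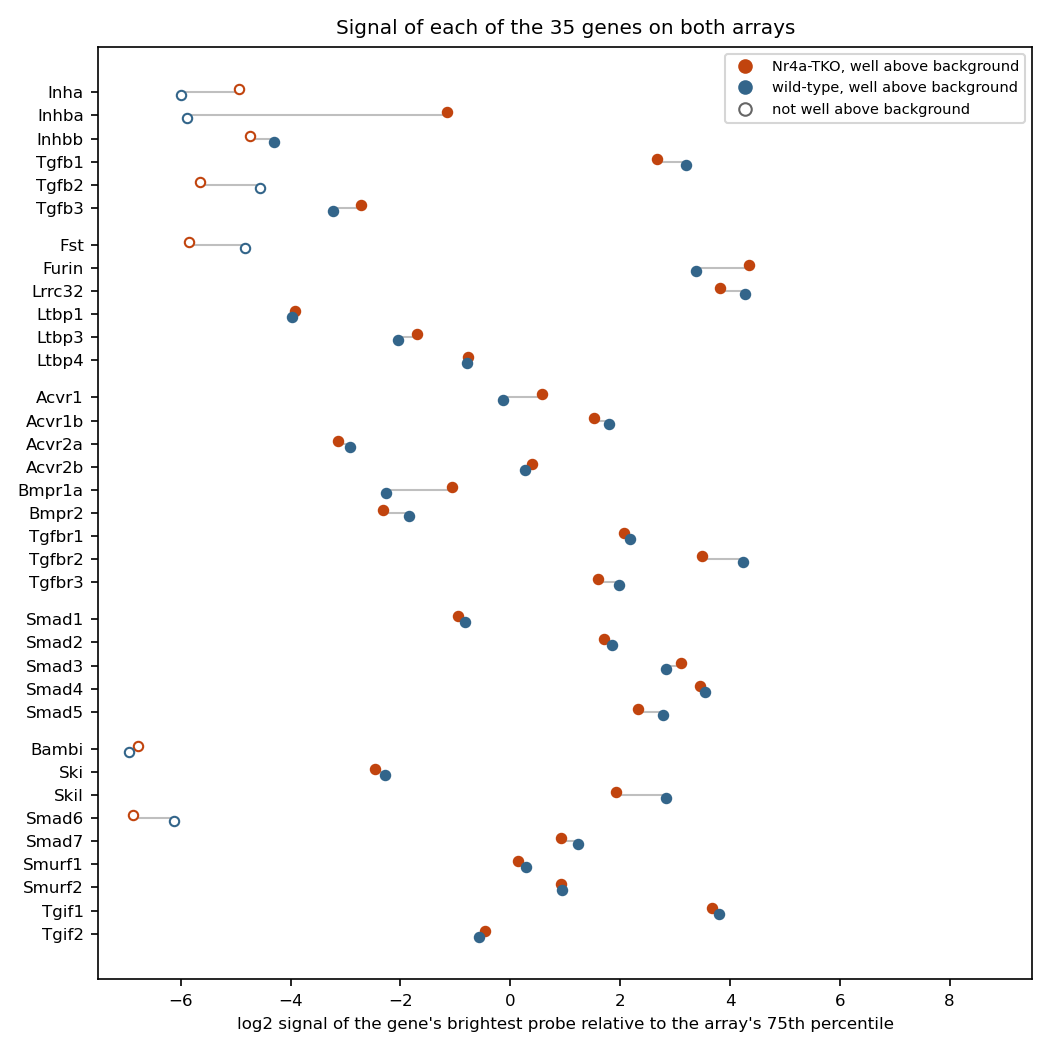
Log2 signal of the brightest probe of each of the 35 genes relative to the array's 75th percentile (horizontal axis), by role; filled points were well above background and open points were not. Inhba is filled at -1.15 for the array labelled Nr4a-TKO and open at -5.88 for wild-type, and Tgfb2, Inha, Fst, Smad6 and Bambi are open on both arrays.

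For Tgfb1, Tgfb3 and Skil the same probe was printed in 10 spots, which gives the reading error on each array directly. The spots of Tgfb1 ran from 2.63 to 2.70 with a median of 2.68 in the array labelled Nr4a-TKO (10 spots), and from 3.10 to 3.27 with a median of 3.21 in the wild-type array (8 usable spots). Skil ran from 1.83 to 2.01 with a median of 1.92 in the array labelled Nr4a-TKO, and from 2.76 to 2.89 with a median of 2.85 in the wild-type array (9 usable spots each). For both genes every spot of the array labelled Nr4a-TKO was lower than every wild-type spot. How many of the 262 probes with repeated spots separate between the arrays was not computed, so this separation has no comparison. Tgfb3, a dimmer probe, ran from -3.05 to -2.38 with a median of -2.77 in the array labelled Nr4a-TKO, and from -3.60 to -2.97 with a median of -3.22 in the wild-type array. Its spots overlapped between the arrays. Spots of 1 array share their RNA and are not replicates of a genotype.

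**Figure D3:**
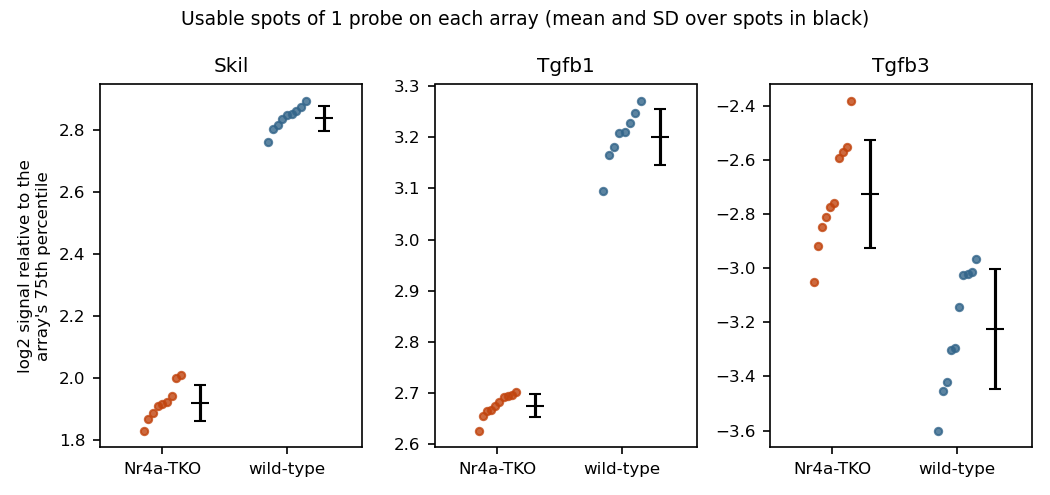
Log2 signal relative to the array's 75th percentile (vertical axis) of each usable spot of the probes printed 10 times, with the array labelled Nr4a-TKO left of wild-type. Spots of Skil and Tgfb1 are separated between the arrays, and those of Tgfb3 overlap. The share of all repeated probes that separate was not computed.

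Of the 6 genes of latency and processing, 5 were measured, 4 above 0 and 1 below, although Ltbp1 and Ltbp4 turned below 0 with the 75th percentile of well-measured probes, spike-ins or housekeeping genes as the centre. Furin had 4.34 in the array labelled Nr4a-TKO and 3.38 in the wild-type array, the widest difference of the group. Lrrc32 encodes GARP, which holds latent TGF-beta on the surface of Treg cells. It had 3.83 in the array labelled Nr4a-TKO and 4.28 in the wild-type array, or 1.37-fold lower. Ltbp1, Ltbp3 and Ltbp4 encode latent TGF-beta binding proteins, which tether the latent complex to the matrix. Ltbp3 was 1.26-fold higher in the array labelled Nr4a-TKO by its brightest probe (-1.71 there and -2.04 in the wild-type array) and 3.19-fold higher by a dimmer one. Ltbp1 differed by 0.05 and Ltbp4 by 0.01. The Ltbp1 value came from a probe for a cDNA clone, since the probe for its RefSeq transcript was not well above background. Fst, which encodes the activin-binding follistatin, was not well above background on either array.

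All 9 receptor genes were measured, 6 of them below 0 and 3 above, or 7 and 2 with spike-in centring, which turned Acvr2b. Tgfbr2 had 3.48 in the array labelled Nr4a-TKO and 4.23 in the wild-type array by its brightest probe, or 1.68-fold lower. A second probe had -0.47 in the array labelled Nr4a-TKO and -0.22 in the wild-type array, or 1.18-fold lower. Its partner Tgfbr1, the type I TGF-beta receptor, had 2.06 in the array labelled Nr4a-TKO and 2.18 in the wild-type array, a difference of -0.12. The 4 probes of Tgfbr1 ranged from -0.76 to 0.27 and so disagreed in direction. Tgfbr3, the co-receptor betaglycan, had 1.59 in the array labelled Nr4a-TKO and 1.98 in the wild-type array, or 1.31-fold lower. Thus all 3 TGF-beta receptor genes lay below 0 by their brightest probes, between -0.12 and -0.75.

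Of the type I receptors that bind BMPs, Bmpr1a and Acvr1 lay above 0. Bmpr1a had -1.07 in the array labelled Nr4a-TKO and -2.26 in the wild-type array, a size that 2.24% of all names matched or passed upward. It has a single probe, and it was 1.92-fold higher with normexp background correction. Acvr1 had 0.58 in the array labelled Nr4a-TKO and -0.14 in the wild-type array, and a second probe gave 1.19-fold higher. Bmpr2, the type II BMP receptor, was 1.38-fold lower, with -2.32 in the array labelled Nr4a-TKO and -1.85 in the wild-type array. Among activin receptors, the type I receptor Acvr1b differed by -0.28 and the type II receptors Acvr2a and Acvr2b by -0.21 and 0.14. The Acvr2a value was -0.02 with normexp, and a second Acvr2a probe was well above background in the array labelled Nr4a-TKO alone.

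All 5 receptor-regulated and common Smads were measured, 4 below 0 and Smad3 above, with a median of -0.11. Smad3 had 3.12 in the array labelled Nr4a-TKO and 2.83 in the wild-type array, and its 2 probes gave 0.28 and 0.34. Smad2, which acts beside Smad3, had 1.71 in the array labelled Nr4a-TKO and 1.85 in the wild-type array, and Smad4, the partner of both, had 3.46 there and 3.55 in the wild-type array. The differences of Smad2 and Smad4 were under 1 software error. Of the BMP Smads, Smad1 differed by -0.11, also under 1 software error. Smad5 had 2.32 in the array labelled Nr4a-TKO and 2.79 in the wild-type array, or 1.38-fold lower, while its second probe gave 0.17 in the other direction.

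Of the 9 inhibitors and corepressors, 7 were measured, 6 below 0, with a median of -0.15. The exception, Tgif2, lay at 0.10 and turned below 0 with spike-in or housekeeping centring. Skil had 1.92 in the array labelled Nr4a-TKO and 2.84 in the wild-type array. Its second probe was 1.48-fold lower, and 3.58% of all names were as low or lower than its brightest. Ski, the related corepressor, differed by -0.18, under 1 software error. Smad7, an inhibitory Smad that TGF-beta signals themselves induce, had 0.92 in the array labelled Nr4a-TKO and 1.22 in the wild-type array, or 1.24-fold lower. Smurf1 and Smurf2, ubiquitin ligases that act with Smad7 on receptors, differed by -0.15 and -0.03, and the other Smurf2 probes by -0.27 and -0.42. The corepressor Tgif1 differed by -0.12. Smad6, the inhibitory Smad of the BMP branch, and Bambi, a decoy receptor, did not pass background on either array.

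More than 1 probe was measured for 13 of the genes, and for 11 of these all their probes pointed 1 way, the exceptions being Smad5 and Tgfbr1. Over the 6790 gene names with several measured probes the probes pointed 1 way for 63.0%. The gap between the highest and lowest probe had a median of 0.35 over the 13, beside 0.25 over the 6790. It was widest for Ltbp3, at 1.34.

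**Figure D4:**
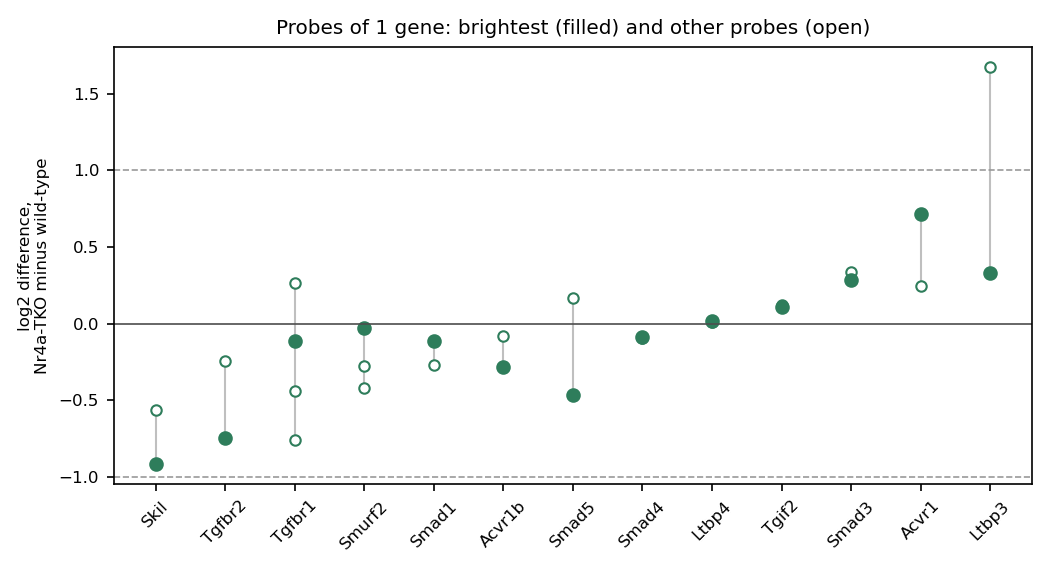
Difference of each measured probe between the array labelled Nr4a-TKO and wild-type (log2, vertical axis, above 0 where higher with the Nr4a-TKO label), for the 13 genes with several measured probes, with the brightest probe filled. The 2 probes of Ltbp3 lie 1.34 apart, and those of Smad5 and Tgfbr1 fall on both sides of 0.

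Promoters were searched on both strands for 3 motifs, since Nr4a receptors bind the NBRE and Smads bind GTCT-containing elements. RefSeq windows from 250 bases before to 50 after the start (GRCm38.p6) matched 26 of the 35 genes by symbol, with 37 windows. The NBRE, AAAGGTCA, was in 1 of the 37 windows, which is 1 of several of Tgif1, and in 1.51% of all 32851 windows. The palindromic Smad element, GTCTAGAC, was in 1 of the 37, of Smad6, and in 0.213% of all windows. The longer CAGA box, AGCCAGACA, was in none of them and in 0.387% of all windows. A match is only a run of letters, and no binding was measured in these cells. The 250 bases before the start are printed for Inhba and Bmpr1a, whose differences were widest upward, and for Tgif1, with the NBRE in capitals 239 bases before the start. They lie at chr13:16011601-16011850 on the plus strand (Inhba), chr14:34502547-34502796 on the minus strand (Bmpr1a) and chr17:70849791-70850040 on the minus strand (Tgif1), 5′ to 3′ along the gene.
Inhba: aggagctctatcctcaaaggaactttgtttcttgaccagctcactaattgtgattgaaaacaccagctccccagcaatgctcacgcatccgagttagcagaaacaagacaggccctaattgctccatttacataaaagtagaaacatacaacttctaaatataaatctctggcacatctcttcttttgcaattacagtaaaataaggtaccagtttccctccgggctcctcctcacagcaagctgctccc
Bmpr1a: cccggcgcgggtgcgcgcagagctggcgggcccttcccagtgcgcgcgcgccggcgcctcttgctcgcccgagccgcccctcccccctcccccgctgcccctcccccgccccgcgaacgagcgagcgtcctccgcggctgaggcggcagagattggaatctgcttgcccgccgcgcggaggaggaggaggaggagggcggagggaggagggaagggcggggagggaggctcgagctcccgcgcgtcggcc
Tgif1: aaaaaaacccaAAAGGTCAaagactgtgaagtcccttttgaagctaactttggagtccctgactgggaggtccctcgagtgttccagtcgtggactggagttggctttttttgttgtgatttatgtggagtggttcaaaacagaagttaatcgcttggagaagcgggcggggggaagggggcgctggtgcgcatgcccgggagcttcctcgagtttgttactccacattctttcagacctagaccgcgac
The 2 promoters of the genes highest in the array labelled Nr4a-TKO had unlike base composition: G and C made up 43.2% of that of Inhba and 78.8% of that of Bmpr1a, beside 52.4% as the median of all windows.

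Other genes of the pathway were taken in 7 lists, each read against the same shares of all names (3.15% higher and 3.06% lower by 2-fold or more). Of 11 measured genes that activate latent TGF-beta or act as its co-receptors, 2 were higher by 2-fold or more in the array labelled Nr4a-TKO and 1 lower, with a median of 0.08. Nrp1, a co-receptor, was 3.23-fold higher and the integrin subunit Itgb5 just reached 2-fold (1.61-fold with normexp), while Itgb3, another subunit of integrins that bind latent TGF-beta, was 3.23-fold lower. Of 13 other ligands and receptors of the superfamily, 2 were higher and 3 lower, with a median of 0.11. Acvrl1, the type I receptor ALK1, was 8.80-fold lower there. Acvr1c (ALK7) and Amhr2, the anti-Müllerian hormone receptor, were 2.89- and 2.62-fold lower, or 1.78- and 1.56-fold with normexp. The ligand Bmp7 was 2.61-fold higher and the Nodal antagonist Lefty1 was 2.24-fold higher, or 1.48-fold with normexp, and Gdf15 was at least 2.18-fold higher (1.39-fold with normexp). Of 5 measured secreted inhibitors of BMPs and activins, none passed 2-fold in either direction, and the median was 0.42, with Nog at 0.73, Twsg1 at 0.56, Fstl3 at 0.42 and Dand5 at -0.29.

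None of 19 measured adaptors, ubiquitin ligases and phosphatases of Smads passed 2-fold (median -0.11), the widest being Ldlrad4 and Tgfb1i1 at -0.52 each, Zfyve16 at -0.47 and Nedd4l at -0.42. Of 13 genes of the non-Smad branch 1 did (median -0.09): Pik3r1, a regulatory subunit of PI3-kinase, was 2.10-fold lower, or 1.92-fold with normexp. None of 17 measured nuclear partners of Smads did (median 0.11), the widest being Foxh1 at -0.43, Runx3 at 0.39, Foxo1 at -0.38 and Cited2 at 0.34.

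The seventh list held transcripts known to respond to TGF-beta, activin or BMP signals, chosen like the others with earlier results of these data known. Of 21 measured, 7 were at least 2-fold higher in the array labelled Nr4a-TKO and 4 lower, with a median of 0.16. The cytokine Il9 was 14.4-fold higher. Of the BMP targets of the Id family, which encode inhibitors of helix-loop-helix factors, Id1 and Id2 were 5.39- and 3.25-fold higher and Id3 was 1.64-fold lower. The cell cycle inhibitor Cdkn1a was 2.51-fold higher and Ramp1, a co-receptor for the neuropeptide CGRP, 2.08-fold, although the mean over the Ramp1 probes was 0.55 on the log2 scale. On the other side, Foxp3 was 17.2-fold lower there (10.3-fold with normexp), the chemokine receptor Ccr8 4.40-fold, the oxysterol receptor Gpr183 3.93-fold and Ikzf2, which encodes Helios, 3.07-fold. Itgae, the integrin CD103, was well above background in the wild-type array alone, so that the other array lay at least 1.58-fold below it (1.135-fold with normexp). These transcripts thus lay in both directions, and each is known to respond to other signals too.

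**Figure D5:**
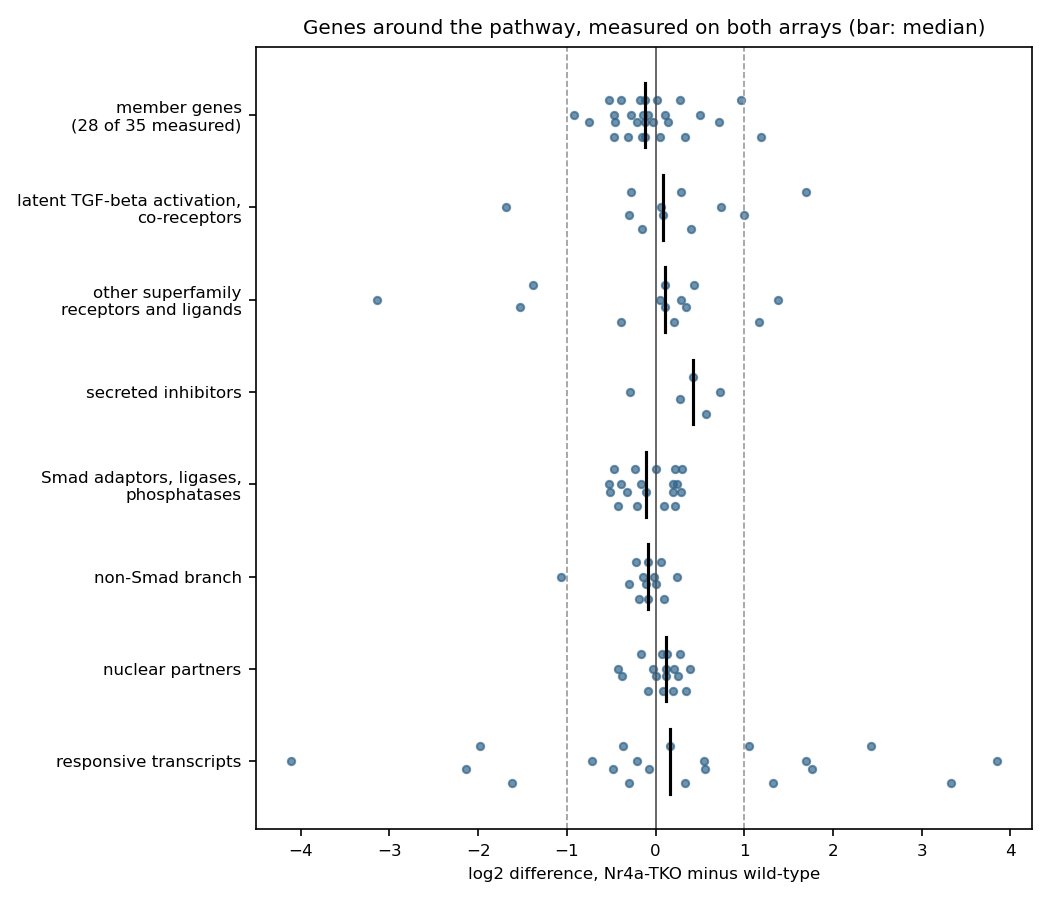
Difference of every measured gene of the 7 pathway lists and of the 28 measured pathway genes of the main list, between the array labelled Nr4a-TKO and wild-type (log2, horizontal axis, above 0 where higher with the Nr4a-TKO label), with the median of each list marked. The responsive transcripts spread from -4.11 to 3.85, the 28 genes from -0.92 to 1.19.

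Markers of the cells themselves differed between the arrays beside these values. All 8 T cell markers and all 8 Treg markers were measured on both arrays, with medians of -0.37 and -0.47. Of the Treg markers, 6 lay below 0 and 2 above, with Foxp3, Ikzf2 and Ctla4 (2.29-fold) lower by 2-fold or more. Their summed signal, before scaling, was 432700 in the array labelled Nr4a-TKO and 626800 in the wild-type array. The brightest of the 8, which was not among those past 2-fold, made up 46.3% of the former and 44.5% of the latter. Without it the sums were 232500 in the array labelled Nr4a-TKO and 347600 in the wild-type array. The T cell markers summed to 428800 in the array labelled Nr4a-TKO and 557300 in the wild-type array. Lrrc32, itself enriched in Treg cells, lay at -0.45 and Tgfb1 at -0.52 beside these marker medians. The part of the cells' makeup in the differences of the 35 genes was not tested.

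Markers of other cell types were measured in part, and their summed signals, before scaling, run over all markers of a list on the array. Of 11 macrophage and dendritic cell markers, 6 were measured on both arrays. The summed signal was 2244 in the array labelled Nr4a-TKO and 2080 in the wild-type array. The 6 had a median of 0.17, with 4 above 0 and 2 below, and Cx3cr1 was 3.14-fold lower. Cd14, Itgax and Clec9a were among those well above background on neither. Of 12 stromal, endothelial and epithelial markers, 7 were measured. The summed signal was 77480 in the array labelled Nr4a-TKO and 62950 in the wild-type array. The 7 had a median of 0.39, with 4 above 0 and 3 below. Krt18 was 2.43-fold higher and Col1a1 was at least 2.16-fold higher, and Pdgfra, Pdgfrb, Cdh5 and Krt8 were on neither. Of 13 granulocyte and mast cell markers, 7 were measured (summed signal 106800 in the array labelled Nr4a-TKO and 149300 in the wild-type array), Ly6g was 6.72-fold higher, Mpo, Kit and Tpsb2 were 7.76-, 5.40- and 3.75-fold lower, S100a8 and S100a9 at least 2.50- and 2.89-fold lower, and 4 were on neither. B cell markers were measured for 5 of 8 (1415 in the array labelled Nr4a-TKO and 1087 in the wild-type array), with Cd79b 2.51-fold higher and Ms4a1 among those on neither. CD8 and NK cell markers were measured for 6 of 9 (1850 in the array labelled Nr4a-TKO and 2075 in the wild-type array), with Gzma and Eomes 3.44- and 2.48-fold higher and Klrd1 at least 5.97-fold lower. Platelet and erythroid markers were measured for 2 of 11 (492.5 in the array labelled Nr4a-TKO and 461.3 in the wild-type array), with Epor 3.06-fold higher, Hbb-b1 at least 2.88-fold lower and 6 on neither. Some sums rested on 1 gene. Vim made up 92.5% of the stromal, endothelial and epithelial sum in the array labelled Nr4a-TKO and 91.4% in the wild-type array, and the rest summed to 5816 in the array labelled Nr4a-TKO and 5391 in the wild-type array. Csf3r made up 96.5% of the granulocyte and mast cell sum in the array labelled Nr4a-TKO and 95.1% in the wild-type array, and the rest summed to 3734 in the array labelled Nr4a-TKO and 7320 in the wild-type array. Without their brightest gene, 3 sums that were higher in the array labelled Nr4a-TKO became lower before scaling. The B cell sum without Cd79b was 641.1 in that array and 747.1 in the wild-type array. For macrophage and dendritic cells without Cd68 it was 1221 in the array labelled Nr4a-TKO and 1312 in the wild-type array. The platelet and erythroid sum without Epor was 237.8 in the array labelled Nr4a-TKO and 369.4 in the wild-type array. The CD8 and NK cell sum turned the other way. Without Cd8b1 it was 1316 in the array labelled Nr4a-TKO and 1155 in the wild-type array. The 75th percentile of log2 signal was 9.56 in the array labelled Nr4a-TKO and 9.70 in the wild-type array. That offset is wider than the macrophage and dendritic cell gap, so this reversal holds only before scaling. With normexp, 3 of these calls ended: Cx3cr1 was 1.82-fold lower, Krt18 1.91-fold higher and Eomes 1.99-fold higher. Normexp also made Mpo 3.04-fold, Kit 2.73-fold and Klrd1 at least 2.45-fold lower and Gzma 2.19-fold higher, and took the bounds of S100a8, S100a9, Hbb-b1 and Col1a1 below 2-fold. The part of such cells in the values of Inhba, Bmpr1a or any other of the 35 genes was not tested.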

How the data were processed

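The authors deposited spot intensity values of 1 one-colour array per genotype from Agilent Feature Extraction 10.10.1.1, annotated on mm9, per the file headers; no normalization between arrays was found in them. A second deposited table held log2 values of the same probes, which differed from the log2 processed signal by a constant on each array (SD 0.000289); its column medians were -3.53 for the array labelled Nr4a-TKO and -3.54 for wild-type, and how the constant was set is not known. Both arrays lay on 1 slide with 1 scan.

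Of the 62976 spots on an array 3671 were controls. Controls and spots the software marked as non-uniform or outlying (117 on the array labelled Nr4a-TKO and 156 on wild-type) were left out. The log2 of the processed signal was averaged per probe, and the 75th percentile of that array was subtracted. A gene was its brightest probe. Where it was well above background on 1 array alone, a lower bound was computed from the bright value less a floor on the dim array, the higher of the lowest signal well above background and the probe's own. The number of arrays limits the precision, and no test was run.

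The 35 genes, the pathway and marker lists and the rule for named genes were chosen with earlier results of these data known. All 35 genes could be named. A few other genes of the lists are counted but not reported by name here. Of each pathway list, genes past 2-fold and otherwise the widest up to 4 were named, with any bound of at least 2-fold; Itgae and Id3 were named after their values were seen. Of the marker lists, single markers past 2-fold were named. The markers named as dim, and Vim, Csf3r, Cd68 and Cd8b1, were chosen after their values were seen. A list of 18 housekeeping genes (median 0.13) and 9 spike-in probes (mean 0.23) served as alternative centres. The other alternatives were normexp correction (offset 50, limma 3.58.1 in R 4.3.3), the array median, the 75th percentile over well-measured probes, quantile normalization, loess, the deposited log2 values, the mean over probes, other filters, accession names and thresholds of 1.5- and 3-fold. Sequences came from the scanner files and RefSeq (GRCm38.p6). Python 3.11.15 with numpy 2.4.6 and pandas 2.3.3 was used, and the gene step was tested on simulated data.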

Additional observations from a re-analysis of the deposited data

How the results depend on the processing

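The median over the 28 genes (-0.12) was -0.10 with normexp, -0.13 with the array median, -0.15 with the mean over probes, -0.17 with the 75th percentile of well-measured probes or quantile normalization and -0.18 with loess. The number below 0 (18) was 20 with that percentile. With spike-in centring 0 genes were at least 2-fold higher in the array labelled Nr4a-TKO and 1 (Skil, 2.21-fold) was lower, with a median of -0.35. With housekeeping centring 1 was lower (Skil, 2.06-fold), with a median of -0.24. Both move the median of all names too, to -0.15 and -0.05, so that the 28 lay 0.20 below it on either. With normexp the gene past 2-fold was Furin (2.02-fold) and not Bmpr1a (1.92-fold). Without the filter on dim probes 3 were higher and 2 lower over all 35 genes; with the mean over probes 2 were higher (Bmpr1a and Ltbp3). At 1.5-fold 3 were higher and 2 lower, and at 3-fold 0 were higher. The cause of these moves was not tested. Of 333 values of single genes over the settings, 248 moved by less than the spread between repeated spots and 85 by more, 56 of them under the 2 centrings. Most of these outcomes were fixed in advance. Filters and accession names left the values as they were. The deposited values, the array median, the other percentile and the 2 centrings shift all genes alike. Only 4 settings could move genes separately. Of 28 genes, normexp moved 6, quantile normalization 7, and loess and the mean over probes 8 each. Over all names, 738 were at least 2-fold higher and 717 lower, against 477 and 455 with normexp, 482 and 1139 (29.7% of calls higher, 50.7% in the setting reported) with spike-in centring, 592 and 906 (39.5%) with housekeeping centring, 1980 and 1828 without a filter and 438 and 438 with the stricter filter. A fit with slide as a block was not run, since a genotype has 1 array. No paired analysis was possible because each genotype has 1 array. Signals near the lowest one well above background (29.3 on the array labelled Nr4a-TKO and 28.1 on wild-type) limit what can be said of Inhbb and Ltbp1, and nothing about variation between mice was measured.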
